A study of Mus musculus with 2 samples.

Results

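The 10 genes described here, Mrc1, Cbr2, F13a1, Stab1, Lyve1, Cd163, Pf4, Folr2, Fcrls and Adgre1, are markers used for tissue-resident macrophages. They were taken as a fixed list out of 43026 gene columns, and all 10 were found in the tables of both libraries. Single cells of mouse testis had been captured on the BD Rhapsody system, a microwell method in which each bead carries a cell barcode, with 1 library from 2-month-old mice (young) and 1 library from 24-month-old mice (aged). The labels give testicular tissue and stroma cells for both libraries and name no strain, genotype or number of mice, and cells with germ cell markers made up most of both libraries. A cell was called a macrophage when C1qa, C1qb, C1qc and Csf1r together made up at least 0.5% of its counts, a rule that uses none of the 10 genes. After filtering, this gave 136 macrophages among 2732 young cells (4.98%, exact 95% interval 4.19 to 5.86) and 101 among 5691 aged cells (1.77%, 1.45 to 2.15).

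The testis holds resident macrophages in the interstitium, where they touch the steroid-producing Leydig cells, and along the wall of the seminiferous tubules. Interstitial macrophages of the adult mouse testis are known for high Csf1r and scavenger receptor genes and low MHC class II, and peritubular macrophages for high MHC class II. C1qa, C1qb and C1qc encode the chains of complement C1q, and Csf1r encodes the receptor for the growth factor CSF1, on which most tissue macrophages depend.

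The 10 genes cover several roles. Mrc1 encodes the mannose receptor CD206, a lectin that takes up glycoproteins. Stab1 (stabilin 1), Cd163 (the receptor for haemoglobin bound to haptoglobin) and Lyve1 (a hyaluronan receptor also known from lymphatic endothelium) are further uptake receptors, and Folr2 encodes a folate receptor. F13a1 encodes the A chain of coagulation factor XIII, a cross-linking enzyme, Pf4 the chemokine CXCL4, and Cbr2 a carbonyl reductase. Fcrls encodes an Fc receptor-like protein known from microglia, and Adgre1 encodes F4/80, an adhesion receptor long used as a macrophage antigen.

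By the GENCODE M21 annotation of GRCm38 each is a protein-coding gene on a chromosome of its own, except Folr2 and Lyve1, which both lie on chromosome 7. Mrc1 spans chr2:14229392-14332057 on the plus strand, Fcrls chr3:87250758-87263738 on the minus strand and Pf4 chr5:90772435-90773383 on the plus strand. Cd163 spans chr6:124304656-124330527 (plus), Folr2 chr7:101839988-101857194 (minus) and Lyve1 chr7:110850607-110863239 (minus). Cbr2 spans chr11:120729489-120732114 (minus), F13a1 chr13:36867178-37050244 (minus), Stab1 chr14:31139013-31168641 (minus) and Adgre1 chr17:57358691-57483527 (plus). F13a1 overlaps Gm49144 and Gm30489 on the opposite strand, Folr2 overlaps Gm10602 and Gm45319, and Stab1 overlaps Nt5dc2. The sources used here do not state whether counting used the strand, so reads of these overlapping genes cannot be told apart.

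The sequences just before the start sites are shown for F13a1, Stab1, Cd163 and Pf4, 4 genes that were all lower in one group of young macrophages and whose window lies outside the annotated transcript. Each is 200 bases long, ends at the base before the first start site listed in RefSeq (GRCm38.p6), and is written 5′ to 3′ on the strand of the gene. Capitals mark matches to GAGGAA or TTCCTC, the core bound by the macrophage factor PU.1 on either strand, and to TGCTGA or TCAGCA, a short motif of the MAF family.
F13a1 (chr13:37050245-37050444, minus strand): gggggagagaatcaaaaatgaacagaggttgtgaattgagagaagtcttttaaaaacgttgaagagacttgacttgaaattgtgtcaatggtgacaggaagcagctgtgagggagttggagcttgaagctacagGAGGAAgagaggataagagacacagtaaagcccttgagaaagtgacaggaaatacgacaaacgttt
Stab1 (chr14:31168642-31168841, minus strand): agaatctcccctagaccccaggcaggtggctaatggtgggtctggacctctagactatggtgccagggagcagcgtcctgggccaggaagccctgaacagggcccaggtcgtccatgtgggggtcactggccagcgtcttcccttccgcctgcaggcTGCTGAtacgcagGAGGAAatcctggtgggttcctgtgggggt
Cd163 (chr6:124304451-124304650, plus strand): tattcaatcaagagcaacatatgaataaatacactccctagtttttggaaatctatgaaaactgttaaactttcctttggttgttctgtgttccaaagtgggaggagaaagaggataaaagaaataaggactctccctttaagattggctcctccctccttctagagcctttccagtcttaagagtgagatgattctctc
Pf4 (chr5:90772235-90772434, plus strand): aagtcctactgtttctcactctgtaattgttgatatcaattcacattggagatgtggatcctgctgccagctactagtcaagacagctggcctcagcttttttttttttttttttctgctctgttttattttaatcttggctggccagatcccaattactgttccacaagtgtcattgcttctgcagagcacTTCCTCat
The PU.1 core began at position -66 in F13a1, -30 in Stab1 and -8 in Pf4, counted back from -1 at the base before the start, and the 250 bases before the Cd163 start held neither motif. RefSeq start sites were found for 8 of the 10 genes, with 10 start sites in all. Lyve1 and Adgre1 were not matched. Of these 10 start sites, 6 had a PU.1 core in the 250 bases before them, and 23.3% of 32851 such windows over all genes held it. The MAF motif was present at 4 of the 10 and in 16.1% of all windows. A match is a description of letters and says nothing of binding.

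Levels below are in CPM, which is 1000000 times the gene's summed counts divided by all counts of the group's cells. Their 95% intervals are exact Poisson intervals, those of ratios come from the exact binomial distribution given the sum of both counts, and those of shares are Clopper-Pearson. All of these cover counting error only, and since each age has 1 library, no difference has a replicate check and none was tested. Values are compared between groups of cells for the same gene and not between genes. A gene was counted as higher or lower between macrophage groups from 1.5-fold, and between macrophages and other cells from 10-fold, with at least 10 counts over both groups. Library totals were 53413783 counts over 2771 young cells and 66390904 over 6823 aged cells in the tables. No young cell held fewer than 3215 counts, while aged cells went down to 186. Macrophages had a median of 5299.5 counts in young and 2366 in aged mice, and 69 of the 101 aged macrophages lay under the lowest young total. The libraries shared 35 cell barcodes, which were carried by 3 young and 0 aged macrophages. Leaving those barcodes out changed no count of higher or lower genes and no direction of an age ratio.

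All 10 genes had their highest level among the cell classes in macrophages, in both libraries. Each was at least 10-fold higher in macrophages than in all other cells of the same library, where 6.1% of 23481 genes (young) and 9.07% of 23991 genes (aged) were. The ratio ran from 203 for Adgre1 to 979 for Cd163 in the young library and from 122 for Lyve1 to 1122 for Cd163 in the aged library. The Lyve1 ratios rested on 8 counts in young and 4 in aged macrophages.

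Mrc1 stood at 637 CPM (583 to 695) in young and 1102 (986 to 1227) in aged macrophages, and at 0.093 and 0.23 CPM (2 and 9 counts) in spermatocyte-like cells. Cbr2 was at 15.5 CPM (4 counts) in young and 8.48 CPM (2 counts) in aged fibroblast-like cells, against 1341 and 2117 CPM in macrophages. F13a1 reached 954 and 1499 CPM in macrophages and 4.97 and 3.59 CPM in elongating spermatid-like cells. Among the classes compared in the young library, Fcrls and Adgre1 were next highest in Leydig-like cells, at 6.83 and 3.22 CPM. Young round spermatid-like cells had 2.73 CPM of Adgre1, with a count in 7.96% of cells at a median of 29040 counts per cell. Ordered by level below the macrophages, neighbouring classes had overlapping intervals in 36 of 40 cases (young) and 69 of 70 cases (aged), so the order of the other classes is largely not resolved.

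For 9 of the 10 genes the interval in macrophages lay above that of every other class compared, in both libraries, and the exception was Lyve1. In the aged library it was at 13.4 CPM (4 counts, 3.64 to 34.2) in macrophages and 12.7 CPM (3 counts, 2.62 to 37.2) in fibroblast-like cells, and these intervals overlapped almost entirely. In the young library its 8 counts gave 9.99 CPM (4.31 to 19.7) in macrophages, and 0 counts fell in fibroblast-like cells, where 3 counts would make 11.7 CPM.

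**Figure D1:**
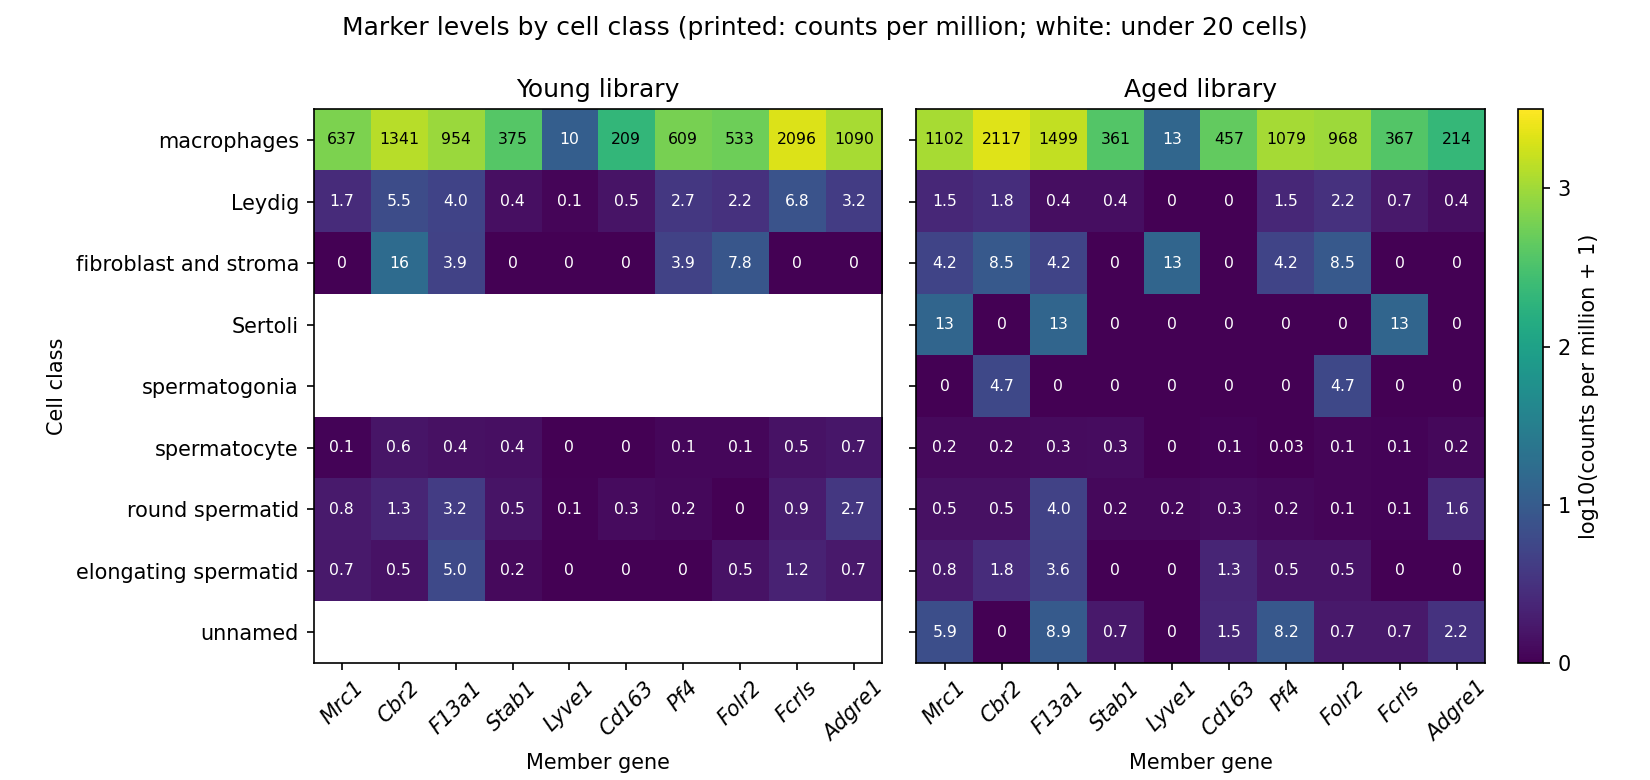
Levels of the 10 genes (columns) in the cell classes of the young and the aged library (rows), as CPM printed in each cell and coloured by log10(CPM + 1), with classes of under 20 cells left white. The macrophage row is highest for each gene in both libraries, and Lyve1 has near-equal values in aged macrophages and aged fibroblast-like cells.

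A joint clustering of both libraries was made without the 10 genes and the 4 genes of the rule. The young macrophages fell into 2 clusters of near equal size. One, here called the shared cluster, held 66 young and 99 aged macrophages, and its leading genes included Ccl8, Lyz2, Wfdc17 and Csf1r. The other, the young-only cluster, held 69 young and 0 aged macrophages, and was led by Slc13a3, Fcrls, Rac2, Fcer1g, Ccl4 and Cd52. Only 1 young and 2 aged macrophages lay elsewhere. Depth was alike within the young library, with a median of 5223.5 counts in the shared and 5353 in the young-only cluster, and 2372 in aged cells of the shared cluster. A cluster of 1 library may be that library rather than a kind of cell, and library and age cannot be told apart here. The comparison of both clusters within the young library does not involve the aged one.

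Within the young library, Mrc1, Cbr2, F13a1, Stab1, Cd163, Pf4 and Folr2 were high in the shared cluster and close to 0 in the young-only cluster, and Fcrls and Adgre1 were higher in the young-only cluster. In the young-only cluster 7 genes were at least 1.5-fold lower than in the shared cluster, where 35.1% of 8446 genes were lower, and 2 genes, Fcrls and Adgre1, were higher, where 26.4% of genes were. Lyve1, with 8 counts in the shared and 0 in the young-only cluster, had too few counts for a call. The median log2 ratio of the 9 genes with enough counts was -5.61. Against the other cells of the young library, 10 of 10 genes were at least 10-fold higher in the shared cluster, where 5.5% of 23390 genes were. In the young-only cluster 5 genes were (Stab1, Cd163, Pf4, Fcrls and Adgre1), where 6.49% of 23394 were, and for Cd163 this rested on 4 counts from 1 cell. Genes correlated with these 10 did take part in the clustering, so the split is not independent of them.

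Among the uptake receptors, Mrc1 was at 1243 CPM (1137 to 1357) in the shared cluster and 15.3 CPM (6 counts, 5.61 to 33.2) in the young-only cluster, 81.4 times lower. Stab1 stood at 722 and 20.4 CPM (35.5 times lower, 17.8 to 82.9), and Cd163 at 404 and 10.2 CPM (39.7 times lower, 15.2 to 148). Folr2 stood at 1032 CPM against 2 counts, and the ratio of 203 has a counting interval of 55.8 to 1680. The shared cluster was high and the young-only cluster low for each of these receptors, with intervals far apart.

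The secreted factors and the enzyme followed the receptors. F13a1 was at 1864 CPM in the shared and 12.7 CPM in the young-only cluster, and its 5 counts there came from 1 cell. Pf4 was at 1179 and 22.9 CPM, 51.4 times lower (26.9 to 113). Cbr2 was at 2588 and 40.7 CPM, 63.5 times lower (38.9 to 112).

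Fcrls and Adgre1 had the opposite pattern and were present in both clusters. Fcrls was at 3763 CPM (3573 to 3959) in the young-only and 491 CPM (425 to 565) in the shared cluster, a ratio of 7.66 (6.60 to 8.93). Adgre1 was at 1853 CPM (1721 to 1993) and 355 CPM (299 to 418), a ratio of 5.22 (4.36 to 6.29). Every one of the 69 young-only macrophages had a count of both genes, and 55 and 57 of the 66 young cells of the shared cluster had a count of Fcrls and of Adgre1. The 20 cells of the young-only cluster that fell under the 0.5% rule had the same layout, with Fcrls at 2365 and Adgre1 at 1586 CPM, Cbr2 at 18.6 CPM, and 0 counts of Mrc1, Cd163, Pf4, Folr2 and Lyve1. For Fcrls and Adgre1 this lies above the 2096 and 1090 CPM of all young macrophages. These cells were not among the classes compared.

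**Figure D2:**
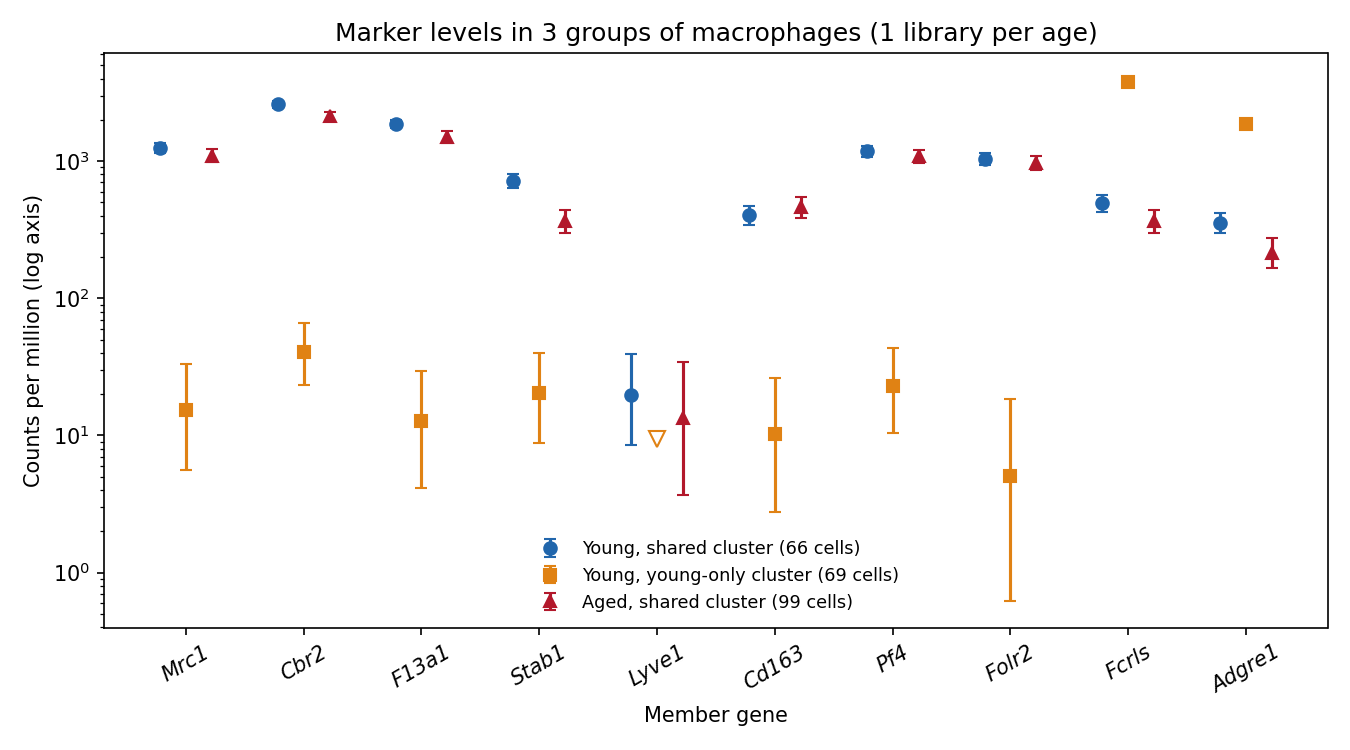
CPM on a log axis for each gene in young shared-cluster, young-only-cluster and aged shared-cluster macrophages, with exact Poisson 95% intervals, and an open triangle at the upper limit where the count was 0. The young-only cluster lies 35.5 to 203 times under the young shared cluster for 7 genes and above it for Fcrls and Adgre1, and within the shared cluster Stab1 and Adgre1 are at 0.50 and 0.61 times the young level in aged cells.

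The genes of the rule itself differed less, apart from Csf1r. C1qa, C1qb and C1qc were at 0.66, 0.86 and 0.75 times their shared-cluster level in the young-only cluster, while Csf1r was at 272 CPM against 2385 CPM. The young-only cells thus passed the rule through C1q. Since C1q and Csf1r chose the cells, these values are a description.

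The young-only cluster also differed in what else it held, over lists of genes chosen apart from the 10. Of all 8446 genes, 26.4% were at least 1.5-fold higher and 35.1% lower in this comparison. Of 14 genes common to macrophages, 6 were higher and 6 lower than in the young shared cluster, among them the lipid receptor gene Trem2 (627.8 CPM in the shared cluster against 3 counts, lower) and the lipopolysaccharide co-receptor gene Cd14 (67.0 and 300.4 CPM, higher). The lysozyme gene Lyz2 was at 8767 and 2732 CPM. Of 19 other resident macrophage genes with enough counts, 17 were lower and 1 was higher, with a median log2 ratio of -4.10. The lectin gene Clec10a went from 444 CPM to 1 count and the selenium carrier gene Selenop from 11303 to 1604 CPM, while Cd5l, a scavenger receptor family gene of some resident macrophages, was the 1 that was higher, at 1 count and 44 counts. Of 12 scavenger and uptake receptor genes 8 were lower and 2 higher, with Clec4n at 516 CPM against 0 counts and the integrin gene Itgam at 112 and 672 CPM.

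All 6 MHC class II genes with enough counts were lower in the young-only cluster (median log2 ratio -2.92), with the invariant chain gene Cd74 at 1330 and 201 CPM. Over all genes, 35.1% were lower and 26.4% higher. Of 11 inflammatory cytokine and chemokine genes, 5 were higher and 4 lower, and the chemokine gene Ccl4 stood at 12.4 CPM in the shared and 2523 CPM in the young-only cluster. Of the monocyte markers, Ccr2, Ly6c2, Chil3, Fn1 and Vcan had 0 counts in both young clusters, and S100a4 was at 159 and 7.64 CPM. The T and NK cell markers had 0 counts. Of 8 dendritic cell markers, 7 had 0 counts in the young-only cluster, and the transcription factor gene Batf3 was at 313 CPM there and 4.96 CPM in the shared cluster. Of the microglia markers, Fcrls aside, the young-only cluster had 0 counts of Sall1, Siglech and Gpr34 and 7.64 CPM of P2ry12, and 6 of the 9 with enough counts were lower than in the shared cluster and 1 was higher. The 8 markers of other brain cells summed to 30.5 CPM. B cell markers summed to 881 CPM in the young-only and 251 CPM in the young shared cluster, nearly all from Ighm and Cd79b, with 0 counts of Cd79a and Ms4a1. Their part in the result was not tested.

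Transcripts of Leydig cells moved with the clusters too. The 9 Leydig markers summed to 9060 CPM in young and 5415 CPM in aged macrophages of the shared cluster, to 143 CPM in the young-only cluster, and to 23877 CPM in young Leydig-like cells. Over 0.5% of the counts were Leydig markers in 27 of 66 shared-cluster cells from young mice and in 30 of 99 from aged mice. The 27 young cells had 16047 CPM of Leydig markers at a median of 8250 counts, against a median of 4511 in the other 39. By the marker lists the shared cluster got no class name, since Leydig markers (mean z-score 1.84) came near macrophage markers (2.24). The source of these counts was not tested. In the 39 young shared-cluster cells with at most 0.5%, the Leydig sum was 307 CPM, Mrc1 was at 2001, Cbr2 at 3662 and F13a1 at 2857 CPM, and Fcrls and Adgre1 at 727 and 576 CPM. The distance to the young-only cluster was therefore larger for the first 3 and smaller for Fcrls and Adgre1 in cells with few Leydig counts. The 8 Sertoli markers summed to 1824 CPM in young shared-cluster and 33.1 CPM in young-only cells, all but 9.93 CPM of the first from Clu and Defb19, and the 8 elongating spermatid markers to 1869 and 754 CPM.

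The same split was seen cell by cell. Summed over Mrc1, Cbr2, F13a1, Stab1, Lyve1, Cd163, Pf4 and Folr2, the young cells of the shared cluster ranged from 1361 to 20522 CPM with a median of 10879, and the young-only cells from 0 to 2597 with a median of 0. For Fcrls and Adgre1 together the shared-cluster young cells ranged from 0 to 4412 CPM with a median of 854, and the young-only cells from 794 to 13634 with a median of 5486. Both measures overlapped at their edges, and the 8 genes gave more counts than Fcrls and Adgre1 in 66 of 66 young shared-cluster, 98 of 99 aged shared-cluster and 1 of 69 young-only macrophages. This division into 8 genes and 2 was made after the values had been seen.

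**Figure D3:**
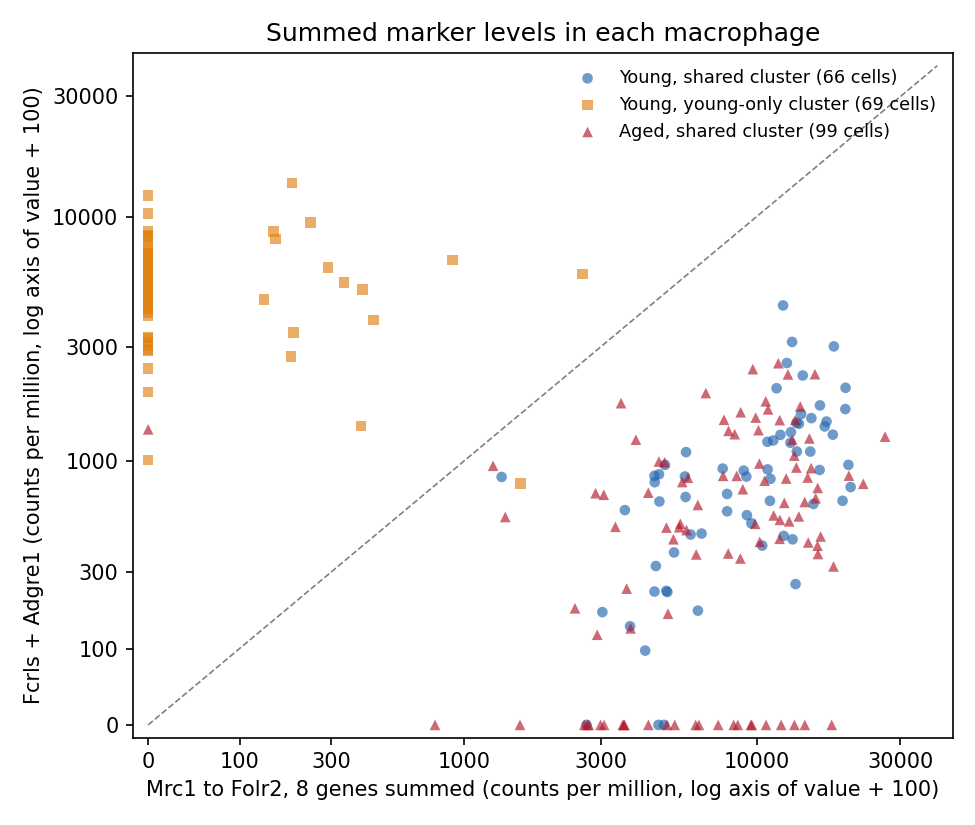
Each point is 1 macrophage, with the summed level of 8 genes (Mrc1, Cbr2, F13a1, Stab1, Lyve1, Cd163, Pf4 and Folr2) on the x axis and of Fcrls and Adgre1 on the y axis, both in CPM on a log axis of the value plus 100, and the dashed line marks equal sums. Young and aged cells of the shared cluster overlap below the line, and 68 of the 69 young-only cells lie above it.

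Co-detection was counted after each macrophage had been thinned to 1000 counts, which left out 9 aged cells. A young macrophage then had a median of 3 of the 10 genes, and an aged one a median of 5. The young median lay between those of its clusters, which were 5 (range 1 to 9) in the shared cluster and 2 (0 to 6) in the young-only cluster. Aged cells of the shared cluster had a median of 5 (1 to 8). At least 5 genes were found in 42 of 66 young (63.6%, 50.9 to 75.1) and 52 of 90 aged cells of the shared cluster (57.8%, 46.9 to 68.1), and in 1 of 69 young-only cells (1.45%). With all counts of a cell in use, at least 5 were found in all 66 young and in 86 of 99 aged cells of the shared cluster.

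In the young-only cluster, 57 of 69 thinned cells (82.6%) had both Fcrls and Adgre1 and none of the other 8 genes. That combination was met in 0 of 66 young and 0 of 90 aged shared-cluster cells. Over all cells of a library, whatever their class, it was met in 69 of 2732 young cells (2.53%, 1.97 to 3.19) and in 0 of 5071 aged cells. The Clopper-Pearson upper limit for 0 of 5071 is 0.0727%, and 3 cells would make 0.0592%. Using all counts, the numbers were 77 of 2732 and 0 of 5691.

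The pairs met most often in the shared cluster were Cbr2 with F13a1, in 75.8% of young and 62.2% of aged cells, and Mrc1 with Cbr2, in 68.2% of young cells. The product of the single shares gives 75.6% and 57.9% for Cbr2 with F13a1, and 65.8% for Mrc1 with Cbr2. These pairs were picked for being met most often. In young cells such high single shares leave little room for another value, so nothing is read from the closeness. In the young-only cluster the pair Fcrls and Adgre1 was met in 88.4% of cells and every other pair in at most 4.35%. At this depth Lyve1 had a count in 0 of 66 young shared-cluster cells and in 1.11% of the aged ones, and with all counts in 10.6% of young and 3.03% of aged ones.

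In cells that should lack these genes the counts were rare at the same depth. Each gene had a count in at most 0.15% of thinned spermatocyte-like cells of either library, and in at most 0.56% of Leydig-like cells from young mice and 0.37% of those from aged mice. In the young-only cluster the shares of the 8 genes rested on at most 3 cells each, with Stab1 highest (4.35%, 0.91 to 12.2).

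**Figure D4:**
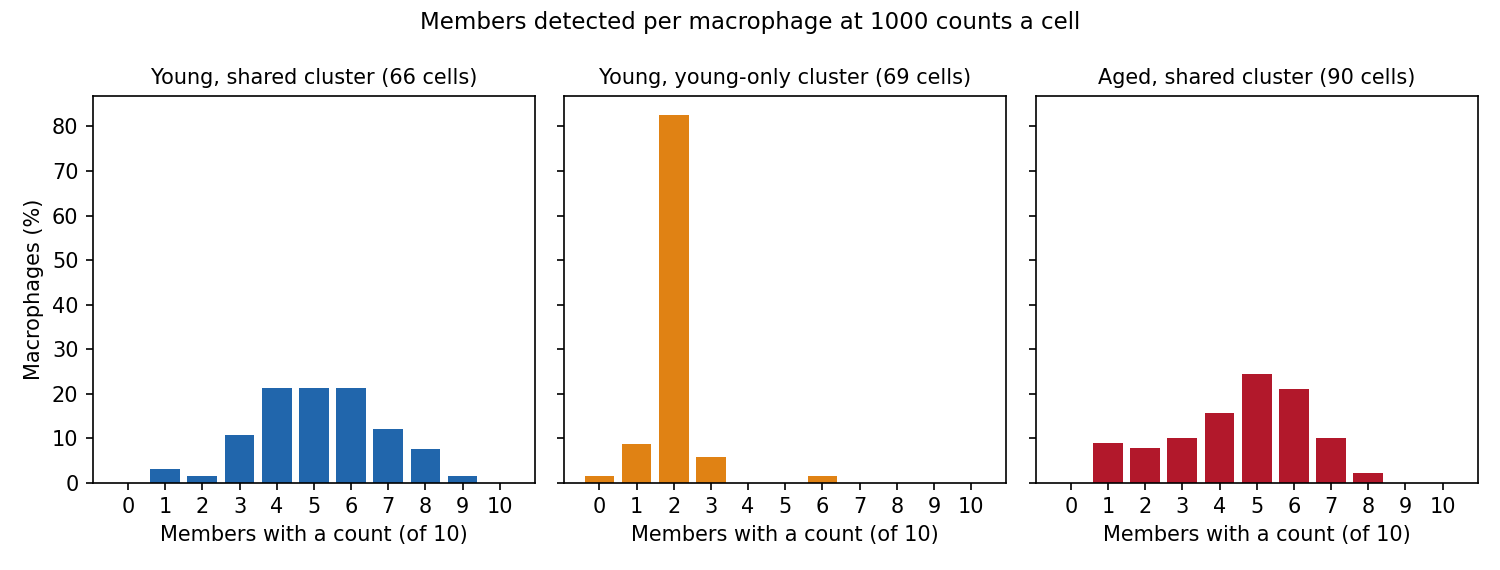
Share of macrophages (y axis, percent) by the number of the 10 genes with a count after thinning to 1000 counts a cell (x axis), for 66 young shared-cluster, 69 young-only and 90 aged shared-cluster cells. The young-only cells sit at 2 genes, and both shared-cluster groups centre on 5.

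Comparing the ages over all macrophages, 6 genes were at least 1.5-fold higher in the aged library, where 20.6% of 9599 genes were, and 2 were lower, where 25.6% were. Cd163 had the largest ratio, 2.19 (1.74 to 2.77), from 209 to 457 CPM. Folr2 was at 1.82, Pf4 at 1.77, Mrc1 at 1.73, Cbr2 at 1.58 and F13a1 at 1.57 times the young level, while Stab1 was at 0.96. Fcrls went from 2096 to 367 CPM, 5.71 times lower (4.70 to 6.99), and Adgre1 from 1090 to 214 CPM, 5.10 times lower (3.96 to 6.68). These ratios set the aged cells against a young group of which 69 of 136 cells were in the young-only cluster.

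Within the shared cluster no gene was at least 1.5-fold higher in the aged library, where 15.6% of 8155 genes were, and 2 genes were lower, where 20.9% were. Stab1 went from 722 to 364 CPM, a ratio of 0.50 (0.40 to 0.63), and Adgre1 from 355 to 216 CPM, a ratio of 0.61 (0.45 to 0.82). Fcrls had a ratio of 0.75 (0.59 to 0.95). Mrc1 (0.88), Cbr2 (0.82), F13a1 (0.81), Pf4 (0.92) and Folr2 (0.95) lay just below 1, the intervals of Cbr2 and F13a1 excluded 1, and Cd163 was at 1.14 (0.90 to 1.44). The median log2 ratio of the 10 was -0.30, beside -0.08 over all 8155 genes. The intervals of Mrc1 (0.76 to 1.01), Pf4 (0.80 to 1.06) and Folr2 (0.81 to 1.10) included 1, so no direction can be read for these 3 over all cells of the shared cluster, which differ in depth. After thinning each cell to 1000 counts the log2 ratio of Adgre1 was -0.39, short of 1.5-fold, and the 2 lower genes were Stab1 (-0.77) and Fcrls (-1.04). The share of all genes that were lower was not computed for thinned cells.

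**Figure D5:**
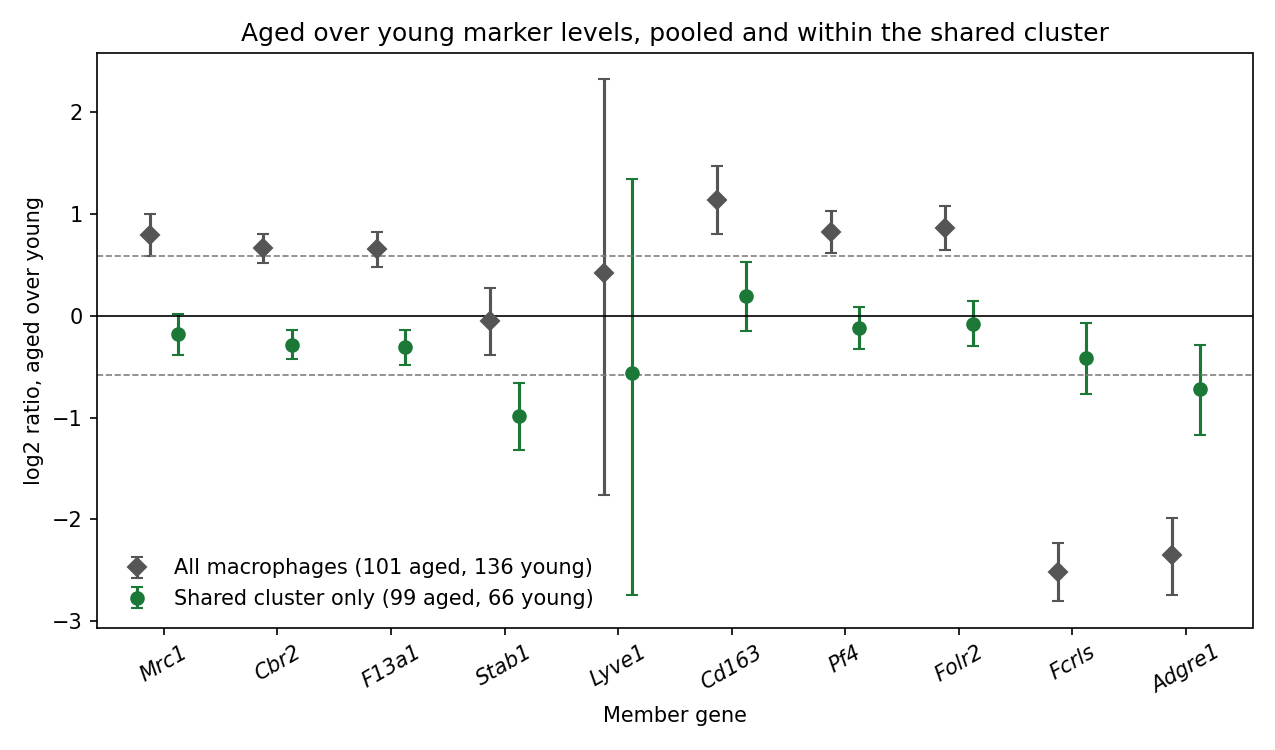
Log2 ratio of aged over young levels for each gene, over all macrophages (diamonds) and within the shared cluster (circles), with exact conditional binomial 95% intervals and dashed lines at 1.5-fold. Mrc1, Cbr2, F13a1, Cd163, Pf4 and Folr2 lie above 0 with their intervals over all macrophages. The shared-cluster intervals of Mrc1, Lyve1, Cd163, Pf4 and Folr2 include 0, and Fcrls and Adgre1 move from 5.71 and 5.10 times lower to ratios of 0.75 and 0.61.

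Depth and Leydig transcripts moved with these values as well. The 32 aged shared-cluster cells at or above the lowest young total had 8871 CPM of Leydig markers and 701 CPM of Mrc1, and the 67 cells under it 612 CPM and 1642 CPM. The young shared-cluster cells had 9060 CPM of Leydig markers and 1243 CPM of Mrc1. Their median depth was 5223.5 counts, near the 5362 of the 32 aged cells. Folr2 was at 666 CPM in the 32 aged and 1032 CPM in the young cells, and Pf4 at 938 and 1179 CPM. With the aged cells limited to these 32, a limit that leaves out none of the 66 young cells, 8 of the 10 genes were at least 1.5-fold lower in the aged library, where 27.7% of 7472 genes were, with log2 ratios of -1.94 for Stab1, -1.52 for Adgre1, -0.82 for Mrc1 and -0.83 for Cd163. Among cells with at most 0.5% Leydig counts at any depth, 2 genes were lower, with log2 ratios of -0.94 for Stab1 and -0.74 for Adgre1. The share of all genes that were lower was not computed for these cells. In cells with over 0.5%, 30 aged and 27 young, the median depth was 5537.5 and 8250 counts. There Mrc1 was at 561 and 638 CPM, Cbr2 at 1326 and 1731, F13a1 at 778 and 1071, and Folr2 at 535 and 638. Pf4 was at 765 and 799 CPM, and Fcrls at 242 and 303. Stab1 was at 153 and 375 CPM, Cd163 at 172 and 268, and Adgre1 at 102 and 178. The part of depth in the age ratios was not tested further.

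Other lists were compared between the ages in the shared cluster by the same 1.5-fold rule. Of all 8155 genes, 15.6% were higher and 20.9% lower in the aged library. Of 20 other resident macrophage genes 9 were higher and 3 lower in the aged library, with Selenop at 11303 and 11186 CPM. Of 6 MHC class II genes 4 were higher and 0 lower, with H2-Aa at 1179 and 2280 CPM and Cd74 at 1330 and 2414 CPM. Of 12 inflammatory genes 11 were higher and 0 lower, with a median log2 ratio of 1.64, and the monocyte attractant gene Ccl2 stood at 598 and 2132 CPM. Scavenger and uptake receptor genes were 2 higher and 4 lower of 11, with Clec4n at 516 and 249 CPM and the inhibitory Fc receptor gene Fcgr2b at 459 and 741 CPM. Of 8 microglia markers 2 were lower, near the share over all genes, and the chemokine receptor gene Cx3cr1 stood at 675 and 269 CPM. Of the 15 dissociation and stress genes 3 were higher, near the share over all genes, and 1 was lower. The 15 genes were at 23756 and 25494 CPM in sum.

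Shared-cluster cells were also grouped, after the values had been seen, by the number of H2-Aa, H2-Ab1, H2-Eb1 and Cd74 counts in 1000, since MHC class II divides known testicular macrophages. In the 28 aged cells with 10 or more such counts and the 44 with 0 to 2, Mrc1 was at 1627 and 768 CPM, F13a1 at 2118 and 1273, Cd163 at 804 and 379, Stab1 at 627 and 247 and Adgre1 at 392 and 143. Folr2 was at 1353 and 763 CPM in these aged cells, and Fcrls at 510 and 329. In the young library Mrc1 was at 1165 CPM in 10 cells and 1296 in 48, F13a1 at 2025 and 1840, Folr2 at 1451 and 958, and Fcrls at 269 and 561. Young Stab1 was at 663 and 758, Cd163 at 358 and 417, and Adgre1 at 430 and 351. The order of the groups thus differed between the libraries for Mrc1, Stab1, Cd163 and Fcrls. Intervals overlapped in young for Mrc1, Stab1 and Cd163, and in aged for Fcrls. The 18 aged and 8 young cells with 3 to 9 counts are not listed. The aged cells with 10 or more counts had a median depth of 1798 counts, against 3724.5 in those with 0 to 2, and the part of depth was not tested.

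By a rule set for the whole table, the genes whose levels over 17 combinations of class and library were most like the mean of the 10 were named, among 3806 genes with at least 50 counts in macrophages. They were Ms4a7 (Pearson r = 0.991 on the log2 scale), P2ry12 (0.991), Trem2 (0.989), Fcgr1 (0.987), Gm6377 (0.983) and Tnf (0.983). These points share libraries, depth and free RNA, and r is given as a description. Inside the young macrophages the 6 parted, with P2ry12, Trem2 and Fcgr1 at 7.64 CPM each in the young-only cluster against 248, 628 and 94.3 CPM in the shared cluster. Gm6377 and Tnf were higher in the young-only cluster, at 214 and 764 CPM against 57.1 and 203 CPM, and Ms4a7 was at 293 and 588 CPM.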

How the data were processed

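Each library has 1 deposited table of raw whole-number counts, with genes and cells as its sides, as the authors made it. Cell Ranger 2.11 and the mm10 genome (GRCm38) are named in the submitters' processing notes, and the header of the aged table names the BD Rhapsody pipeline 1.7.1 and STAR 2.5.2b, so the sources differ on the pipeline. What a count stands for (molecules or reads), and how cells were called, is not given in the sources used here. A gene missing from a table was taken as 0 there.

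Cells under 500 counts or 200 genes, or over 25% mitochondrially encoded counts, were removed, and Scrublet calls (38 young and 121 aged cells) likewise. Both libraries were clustered jointly in scanpy 1.11.5 and leidenalg 0.10.2 on 2000 variable genes, 40 components and 15 neighbours at resolution 1, with no batch correction. Classes were named from marker lists by mean z-score, with limits set after the clusters had been seen, and are called "-like" in the text. Log2 ratios used 0.5 added to each count. The ratio intervals were run on simulated Poisson counts drawn from 1 pooled profile. That is the model they assume, so the run cannot cover spread between cells or libraries.

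All 10 genes are named. From each other list at most 3 genes are named, those with the highest level in the macrophages of a library and those furthest from equality. The genes, the lists and the rule for macrophages were chosen with earlier results of these data known. Alternatives to the macrophage rule, cell filter, doublets, depth, scaling, averaging, clustering and count minimum were run 1 at a time, and those on shared barcodes and Leydig counts were chosen after seeing the data.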

Additional observations from a re-analysis of the deposited data

How the results depend on the processing

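No paired analysis was possible because each age has 1 library. Over all macrophages, the number of the 10 genes at least 1.5-fold higher in the aged library was 6, and it was 2 with a 1% rule for macrophages, 1 with the lowest young total required in both libraries, and 0 without clusters of 1 library or with only clusters shared by the libraries. Without clusters of 1 library the log2 ratios were reversed for Mrc1 (-0.16), Cbr2 (-0.29), F13a1 (-0.31), Pf4 (-0.12) and Folr2 (-0.10), and with only shared clusters they were Mrc1 -0.18, Cbr2 -0.28, F13a1 -0.31, Pf4 -0.12 and Folr2 -0.079; these settings differ from the reported values in that they leave out the young-only cells. Within the shared cluster 2 genes were lower, and 8 were with the lowest young total in both libraries. The share over all genes was computed for the reported comparisons and for that last setting, and not for the other settings. The median number of genes per young macrophage was 3, and 5 with the 1% rule, with all counts, without clusters of 1 library and with only shared clusters. The aged median was 5, and 3.5 with the lowest young total, 7 with all counts and 6 at 2000 counts a cell. The causes were not tested. The shared-cluster values have none with unfiltered cells or doublets kept, since those cells were not clustered. Over all settings run, the log2 ratio within the shared cluster stayed between -1.94 and -0.77 for Stab1 and between -1.52 and -0.39 for Adgre1, whose call was lost at -0.39, with levels from cells thinned to 1000 counts. Those of Pf4 and Folr2 reached 0.083 with thinned cells and 0.014 as a mean over cells. Of 4 counts of Lyve1 in aged and 8 in young macrophages no direction can be read.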
